A study of Homo sapiens with 6 samples.

Results

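Semaphorins, plexins, neuropilins and the DCBLD proteins were followed here in the human colorectal adenocarcinoma line LoVo. The members were all gene symbols of the deposited RNA-seq table that start with SEMA or PLXN, together with NRP1, NRP2, DCBLD1 and DCBLD2. This gave 33 of 19223 gene symbols, namely 20 semaphorins, 9 plexins, 2 neuropilins and 2 DCBLD genes, with 83 transcripts among them. Each symbol is represented by its transcript of highest mean signal.

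RNA was sequenced from 3 libraries of LoVo cells labelled Control, with no dose of the drug, and 3 libraries of LoVo cells given 2.5 μM DCC-2036 (rebastinib), a tyrosine kinase inhibitor that binds ABL1 and other kinases. The labels give 48 h for both groups, whereas a figure legend in the paper gives a shorter exposure for the same dose. The comparison asks which RNAs differ between treated and untreated cells of 1 line. The labels do not say whether the libraries came from separate cultures, so p-values measure only the spread between these libraries, which may be technical. The values are a signal that the authors had already adjusted, so the depth per library is unknown. The signal summed to 38997229, 39956227 and 40587145 in Control and to 43279603, 45957597 and 48023306 in DCC-2036.

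The label was checked against 12 genes of colorectal epithelium. EPCAM, CDH1, KRT8, KRT18, KRT19 and CDX2 were present in all 6 libraries, with CDX2 between 213 and 365. CDH1, at 1635, 1569 and 1610 in Control against 3305, 3458 and 3571 with DCC-2036, was called higher (log2 fold change 1.10, limma adjusted p = 0.000354), as was KRT8 (0.84, limma adjusted p = 0.00287). KRT20 was low and called lower (-1.15, limma adjusted p = 0.00427), at 64.1, 43.6 and 51.5 in Control against 17.7, 28.0 and 24.6 with DCC-2036. VIL1, CDX1, CDH17, CEACAM5 and LGALS4 stayed under 10 in every library, with CDX1 listed at 0 throughout. Markers of epithelium were present, but so were the glial gene MBP (571 to 592 in Control) and the fibroblast gene COL1A1 (353 to 393 in Control). The identity of the line was not verified, and the name LoVo rests on the labels. The leukocyte gene PTPRC was listed at 0 in all 6 libraries, and the summed signal of 5 leukocyte genes was 8.36, 11.4 and 15.8 in Control against 7.43, 15.4 and 41.8 with DCC-2036. Of the 5 neuron and glia genes, MBP held nearly all of the summed signal, which was 602, 580 and 579 in Control against 522, 415 and 222 with DCC-2036. The 6 fibroblast genes summed to 440, 412 and 370 against 516, 452 and 553, mostly from COL1A1, and the 5 endothelial genes to 18.9, 10.4 and 17.7 against 42.3, 16.5 and 25.9, with VWF highest. Whether any of these lists has a part in the results was not tested. In bulk RNA, fewer cells of a type and less RNA per cell cannot be told apart.

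Semaphorins are secreted or membrane-bound ligands with a shared sema domain, first known for steering growing axons. They act through plexins, receptors whose intracellular part is a GTPase-activating domain for small GTPases. Class 3 semaphorins are secreted, and most of them need a neuropilin as co-receptor beside a plexin. Neuropilins also bind members of the VEGF family. Semaphorins of classes 4 to 6 span the membrane and mostly bind plexins directly, and SEMA7A is held by a lipid anchor. DCBLD1 and DCBLD2 resemble neuropilins outside the cell, while their tails carry tyrosines that ABL and SRC family kinases phosphorylate and that then bind the adaptors CRK and CRKL. In epithelial tumours, these families are known for roles in cell migration, vessel growth and contacts with immune cells.

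DCBLD2 was the member with the highest signal per kilobase of transcript in Control, and with DCC-2036 it fell to 27.7% of its Control mean. PLXNA2 and SEMA6C, both low, fell at least as far in relative terms, and SEMA3B and SEMA7A rose most. Of the 33 members, 27 reached a signal of 10 or more in 3 or more libraries and were tested. Differences were tested on log2(signal + 1) with limma over all 12725 genes that passed this filter, and fold changes on this scale understate those of low genes. Calls were made where the adjusted p-value was under 0.01, and 12 of the 27 tested members were called (44.4%), against 41.9% of all tested genes. Of these members 4 were higher, where 19.2% of all tested genes were higher, and 8 were lower, where 22.7% of all tested genes were lower. The members' share was thus close to that of all genes, and the number called says nothing particular about these families. Control and DCC-2036 values did not overlap in 15 of the 27 members, against 71.1% of all tested genes.

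Ligands and receptors were compared by their counts and medians. Among 15 tested semaphorins, 3 were called higher and 4 lower, and the median log2 fold change was -0.28. Among 10 tested plexins and neuropilins, 1 was called higher and 3 lower, with a median of -0.21. The median of all tested genes was -0.09. Scaling all libraries to equal totals moved that median to -0.29 and the medians of the ligands and the receptors to -0.47 and -0.41, a shift that by construction is nearly the same for all genes. Without DCC-2036 replicate 1 the median of the plexins and neuropilins was -0.105, against -0.115 for all tested genes, while it stayed below that of all tested genes when any other library was left out. The same scaling raised the share of lower genes among all called genes from 54.2% to 67.3%, and left 3 members higher and 9 lower. It also turned the sign of DCBLD1, PLXNA1, PLXND1 and SEMA3D, none of which was called. Whether ligands and receptors differ from each other was not tested.

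**Figure D1:**
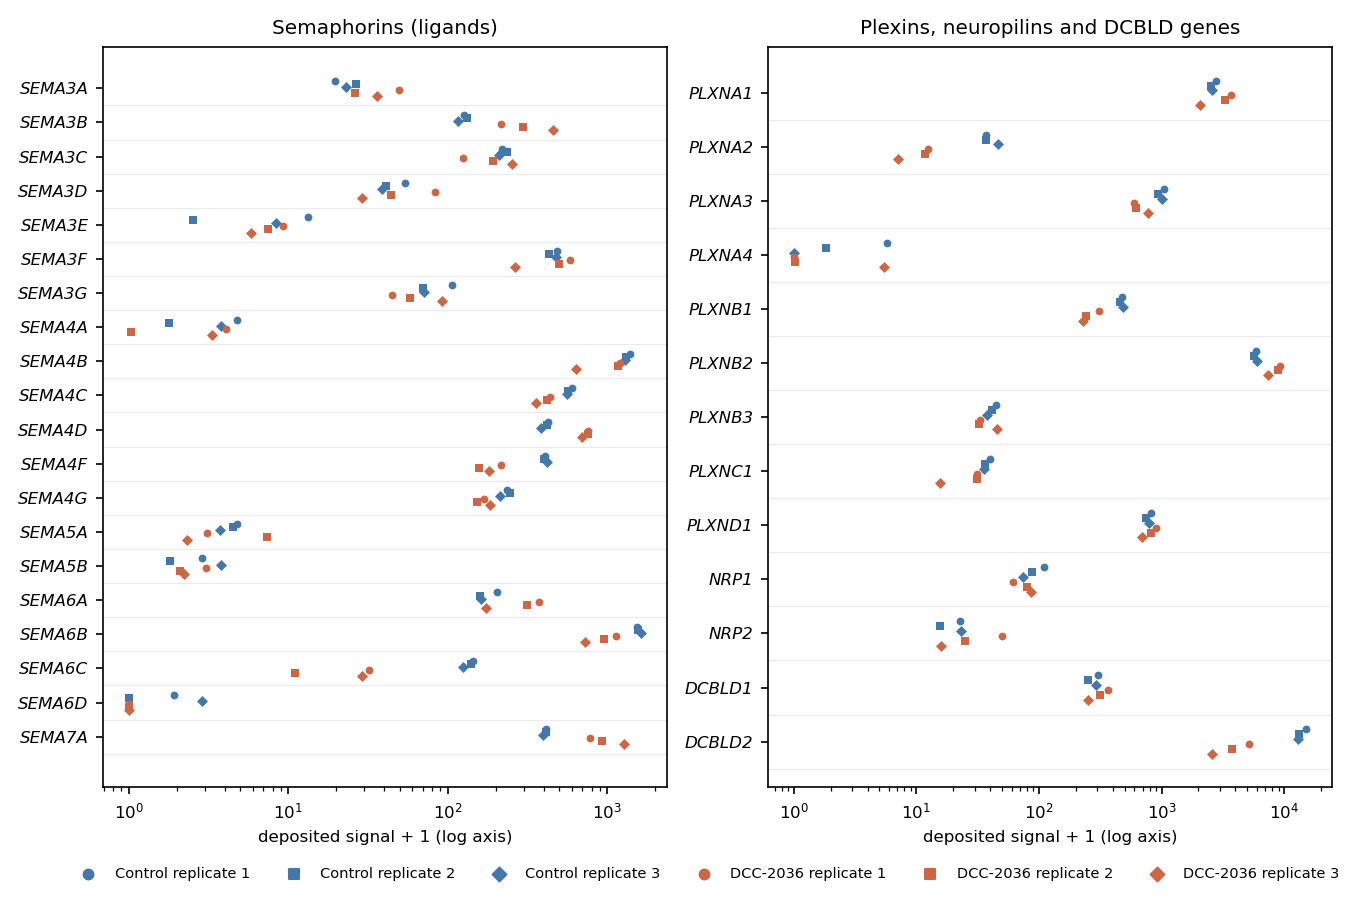
Deposited signal + 1 on a log axis for all 33 members in each library, with Control in blue and DCC-2036 in orange and 1 symbol shape per replicate. DCBLD2 lies between 12988 and 15181 in Control and between 2575 and 5168 in DCC-2036, and the orange points of most members are more spread out than the blue ones.

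The 6 called members with a log2 fold change of at least 1 in either direction were DCBLD2, PLXNA2, SEMA4F and SEMA6C, all lower, and SEMA3B and SEMA7A, both higher. Because these genes moved most, their upstream bases are shown, taken from RefSeq (GRCh38.p14) and written 5′ to 3′ on the strand of the gene. Capitals mark the GC box GGGCGG, read on both strands, so that a match on the other strand appears as CCGCCC. Each run ends at the start that GENCODE release 29 gives for the gene, except that those of DCBLD2 and PLXNA2 end 6 and 64 bases before it. Bases inside the gene were left out, which shortened the runs of SEMA3B, SEMA4F and SEMA6C.
DCBLD2 (chr3:98901696-98901945, minus strand): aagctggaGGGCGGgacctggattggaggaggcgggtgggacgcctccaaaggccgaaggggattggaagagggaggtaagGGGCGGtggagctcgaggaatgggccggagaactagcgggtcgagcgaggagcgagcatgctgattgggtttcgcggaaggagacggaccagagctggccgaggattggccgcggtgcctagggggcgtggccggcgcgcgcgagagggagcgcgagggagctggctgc
PLXNA2 (chr1:208244385-208244634, minus strand): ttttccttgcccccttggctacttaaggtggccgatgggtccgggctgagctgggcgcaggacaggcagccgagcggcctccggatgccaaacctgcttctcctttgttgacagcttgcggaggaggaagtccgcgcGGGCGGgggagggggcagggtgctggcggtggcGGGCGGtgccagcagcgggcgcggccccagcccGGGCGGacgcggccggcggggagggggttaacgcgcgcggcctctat
SEMA4F (chr2:74653997-74654227, plus strand): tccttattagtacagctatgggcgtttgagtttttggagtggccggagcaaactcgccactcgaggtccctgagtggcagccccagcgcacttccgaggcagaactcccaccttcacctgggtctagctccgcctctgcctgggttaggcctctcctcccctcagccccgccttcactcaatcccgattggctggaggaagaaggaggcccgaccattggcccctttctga
SEMA6C (chr1:151146665-151146881, minus strand): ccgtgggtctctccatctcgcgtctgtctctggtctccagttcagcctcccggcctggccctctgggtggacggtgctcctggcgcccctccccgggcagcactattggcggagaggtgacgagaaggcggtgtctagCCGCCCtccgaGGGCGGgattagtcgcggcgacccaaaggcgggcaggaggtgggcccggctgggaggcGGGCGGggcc
SEMA3B (chr3:50267402-50267557, plus strand): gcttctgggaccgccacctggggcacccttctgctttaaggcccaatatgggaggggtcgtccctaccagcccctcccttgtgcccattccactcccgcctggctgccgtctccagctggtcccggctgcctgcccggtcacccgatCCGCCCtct
SEMA7A (chr15:74433959-74434208, minus strand): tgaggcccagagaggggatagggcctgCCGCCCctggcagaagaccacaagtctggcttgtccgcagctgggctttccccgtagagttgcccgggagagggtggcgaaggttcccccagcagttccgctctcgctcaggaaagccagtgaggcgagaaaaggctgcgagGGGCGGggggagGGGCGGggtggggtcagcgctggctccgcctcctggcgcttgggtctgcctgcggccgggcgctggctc

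A promoter window of 250 bases before the RefSeq start was found for 29 of the 33 members, and NRP1, SEMA3A, SEMA6A and SEMA6B had none. A GC box lay in 25 of these 29 windows. It also lay in 63.9% of 14520 windows of tested genes and in 42.6% of all 35116 windows. These shares differ in basis. Each member has 1 window and 6 of the 29 were under the filter, whereas the 14520 windows belong to 12725 tested genes at most. All 4 members called higher and all 7 called lower with a window held it, as did 10 of 12 that were tested and not called. The counts are over the whole window, and both matches of SEMA4F, 3 of the 4 of SEMA3B and 1 of the 4 of SEMA6C lie at least partly in the bases left out above. The AP-1 motif TGANTCA, read the same on both strands, was in none of the 29 windows and in 4.46% of the windows of tested genes. TATAAA, on either strand, was likewise in none of the 29 and in 5.73% of the windows of tested genes. For PLXNA1, PLXNB2, SEMA3D and SEMA4D the window lies over 5 kb from the start of the transcript used here. These matches describe letters only, and GC boxes were in the windows of members that rose and of members that fell.

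Among the ligands, SEMA6C changed most. This transmembrane class 6 semaphorin had a signal of 144, 140 and 123 in Control against 31.0, 10.1 and 27.9 with DCC-2036. All 3 DCC-2036 libraries were far below every Control library, with replicate 2 lowest. SEMA6C had a log2 fold change of -2.65 (SE 0.40, n = 3 per group, limma adjusted p = 0.00206), and 16.9% of the Control mean was left. Leaving out Control replicate 1 ended the call narrowly (log2 fold change -2.61, limma adjusted p = 0.0106). Over all alternatives the limma adjusted p lay between 1.46e-06 and 0.0106.

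SEMA4F, a class 4 transmembrane semaphorin, had values of 407, 403 and 422 in Control against 217, 156 and 182 in DCC-2036. The groups were well apart, with the Control values closer together than the treated ones. It fell by 1.16 on the log2 scale (SE 0.14, limma adjusted p = 0.000975), and it was called under each of the 19 alternatives run.

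SEMA6B, which binds class A plexins, was the semaphorin with the highest signal per kilobase in Control. Its signal was 1546, 1573 and 1639 in Control against 1133, 960 and 730 with DCC-2036. The groups did not overlap, and replicate 3 was lowest among the treated libraries. Its log2 fold change was -0.78 (SE 0.17, limma adjusted p = 0.00836). The call was lost without Control replicate 1, 2 or 3 (adjusted p = 0.0279, 0.0296 and 0.0329, limma) and without DCC-2036 replicate 2 (adjusted p = 0.026), while the log2 fold change stayed between -0.97 and -0.60 in all alternatives. Its limma adjusted p over the alternatives ran from 1.03e-05 to 0.0329.

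SEMA4C, a ligand of PLXNB2, had 603, 568 and 560 in Control against 438, 420 and 359 with DCC-2036. Each treated value was below each Control value, by a small margin. Its log2 fold change of -0.51 (SE 0.11, limma adjusted p = 0.00869) did not hold past the limit when Control replicate 1, 2 or 3 was left out (adjusted p = 0.0366, 0.0341 and 0.0295) or DCC-2036 replicate 2 (adjusted p = 0.0279). It was also lost with median-of-ratios scaling (-0.44, limma adjusted p = 0.0115) and upper-quartile scaling (-0.45, limma adjusted p = 0.0125). Across the alternatives, limma adjusted p-values for it spanned 4.89e-05 to 0.0366.

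Of the ligands that rose, SEMA4D showed the smallest spread. This transmembrane ligand of PLXNB1, also bound by CD72 on B cells, had 427, 416 and 384 in Control against 760, 764 and 693 with DCC-2036. The 3 treated libraries lay close together and well above Control. With a log2 fold change of 0.85 (SE 0.10, limma adjusted p = 0.000956), it was called, and no left-out library or scaling ended the call.

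SEMA7A, which binds PLXNC1 and integrins that contain ITGB1, had 415, 413 and 397 in Control against 780, 927 and 1285 with DCC-2036. Control values were nearly equal, while treated values were higher and differed among themselves, with replicate 3 highest. SEMA7A rose with a log2 fold change of 1.26 (SE 0.19, limma adjusted p = 0.00206). Without Control replicate 1 or 3 the adjusted p was 0.0102 and 0.011, just past the limit of 0.01. Its limma adjusted p over the alternatives ran from 1.51e-06 to 0.011.

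SEMA3B, a secreted class 3 semaphorin, had 126, 131 and 115 in Control against 214, 298 and 459 with DCC-2036. The groups did not overlap, and DCC-2036 replicate 3 was again highest. Its log2 fold change was 1.31 (SE 0.27, limma adjusted p = 0.00641). The call was lost without Control replicate 1, 2 or 3 (adjusted p = 0.0233, 0.0204 and 0.0264, limma) and without DCC-2036 replicate 2 (adjusted p = 0.021). Over all alternatives the limma adjusted p lay between 4.77e-06 and 0.0264. SEMA3F, another class 3 gene 78.5 kb away on chromosome 3, was not called, with a log2 fold change of -0.13 (SE 0.29, limma adjusted p = 0.703).

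By class, 1 of 6 tested class 3 semaphorins was called, 3 of 5 in class 4 and 2 of 3 in class 6, where 41.9% of all tested genes were called. The classes are too small for these counts to set them apart, and no difference between classes was tested. The summed class 3 signal was 1021, 933 and 941 in Control against 1103, 1117 and 1136 with DCC-2036, without overlap, but overlapped with equal totals (1120, 999 and 992 against 1091, 1041 and 1013). The class 6 sum, most of it SEMA6B, was 1893, 1871 and 1926 in Control against 1537, 1285 and 931 with DCC-2036. All semaphorins together summed to 6398, 6162 and 6149 in Control against 6219, 5991 and 5415 with DCC-2036, and these ranges overlap. With equal totals the same sum was lower in each treated library, at 7022, 6601 and 6484 against 6150, 5579 and 4826, so its course depends on the scaling. These equal-totals sums were chosen after seeing the data.

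**Figure D2:**
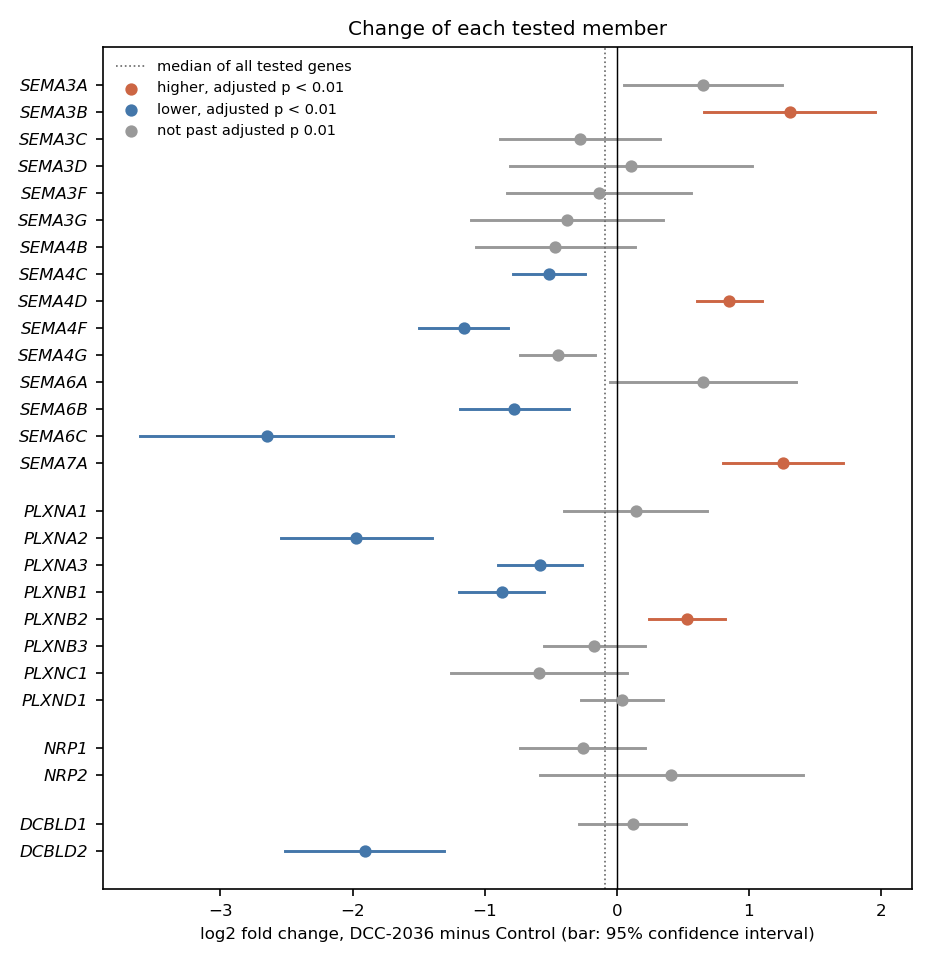
Log2 fold change (DCC-2036 minus Control, on log2(signal + 1)) of the 27 tested members with 95% confidence intervals from limma, n = 3 libraries per group. Orange marks the 4 members called higher, blue the 8 called lower and grey the 15 not called, and the dotted line marks the median of all tested genes at -0.09; with equal totals the grey members DCBLD1, PLXNA1, PLXND1 and SEMA3D lie on the other side of 0.

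Among the receptors, PLXNA2 fell most. PLXNA2 takes part in receptors for class 3 semaphorins and binds class 6 semaphorins directly. Its signal was low, at 35.7, 35.9 and 45.2 in Control against 11.4, 10.8 and 6.09 with DCC-2036. The groups were clearly separate. Its log2 fold change was -1.97 (SE 0.24, limma adjusted p = 0.000978), it was called under each of the 18 alternatives in which it was tested, and the filter of 10 in all 6 libraries removed it.

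PLXNA3, a partner of neuropilins in class 3 signalling, had 1037, 930 and 999 in Control against 599, 618 and 773 with DCC-2036. No treated value reached the Control range, and replicate 3 came closest to it. PLXNA3 fell with a log2 fold change of -0.58 (SE 0.13, limma adjusted p = 0.00916), close to the limit. Leaving out Control replicate 1, 2 or 3 (limma adjusted p = 0.0373, 0.0263 and 0.0355) or DCC-2036 replicate 1 or 2 (0.0173 and 0.0387) ended the call, as did median-of-ratios scaling (-0.51, limma adjusted p = 0.0211) and upper-quartile scaling (-0.52, limma adjusted p = 0.0174). Over all alternatives the limma adjusted p lay between 1.56e-05 and 0.0387. In the annotation PLXNA3 overlaps LAGE3 on the other strand, and the library kit named in the labels does not mark strand, so reads in the shared stretch cannot be told apart.

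The called class B plexins, PLXNB1 and PLXNB2, moved in opposite directions. PLXNB1, the main receptor of SEMA4D and a partner of the receptor kinases MET and MST1R, had 473, 459 and 480 in Control against 306, 243 and 228 with DCC-2036. All treated libraries were lower by a wide margin. PLXNB1 fell with a log2 fold change of -0.87 (SE 0.14, limma adjusted p = 0.00228). Leaving out Control replicate 1, 2 or 3 or DCC-2036 replicate 2 gave adjusted p-values of 0.0116, 0.0113, 0.0124 and 0.0121 (limma), just past the limit. Across the alternatives, limma adjusted p-values for it spanned 2.1e-06 to 0.0124.

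PLXNB2, which binds SEMA4C and SEMA4D, had 5933, 5682 and 5959 in Control against 9307, 8833 and 7369 with DCC-2036. It was the only called plexin that was higher, with all 3 treated libraries above Control and replicate 3 nearest to it. The log2 fold change was 0.53 (SE 0.12, limma adjusted p = 0.00924). With equal totals it was 0.33 and not called (limma adjusted p = 0.0858), whereas median-of-ratios and upper-quartile scaling kept the call (0.60 and 0.59, limma adjusted p = 0.00421 and 0.00492). The sign was the same under all 3 scalings, and whether PLXNB2 is called depends on the scaling. The call also ended without Control replicate 1, 2 or 3 (limma adjusted p = 0.0321, 0.0407 and 0.0326) and without DCC-2036 replicate 1 or 2 (0.0161 and 0.0396). Its limma adjusted p over the alternatives ran from 1.1e-05 to 0.0858.

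Set side by side, SEMA4D was higher while its receptor PLXNB1 was lower and PLXNB2 higher. SEMA4C was lower while its receptor PLXNB2 was higher. SEMA6B, SEMA6C and PLXNA2 were all lower. SEMA3B was higher, and no neuropilin was called. PLXNC1, the plexin of SEMA7A, was not called, with 38.6, 35.1 and 34.9 in Control against 30.0, 30.2 and 14.6 with DCC-2036. PLXNC1 overlaps CEP83 on the other strand, whose mean signal of 419.6 is far above that of PLXNC1. No pair was tested as a pair.

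PLXNB2 made up 54.0% of the summed plexin signal in Control and 63.9% in DCC-2036. That sum was 11161, 10472 and 10935 in Control against 14896, 13851 and 11180 with DCC-2036, without overlap but with replicate 3 next to the highest Control library. With equal totals the plexin sums overlapped, at 12249, 11218 and 11531 against 14731, 12899 and 9964.

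DCBLD2 and DCBLD1 did not move alike. DCBLD2 lies on chromosome 3 (GRCh38, chr3:98795941-98901689, minus strand) and had a signal of 15181, 13305 and 12988 in Control against 5168, 3725 and 2575 with DCC-2036. Even the highest treated library was far below the lowest Control library, and replicate 3 was lowest. The log2 fold change was -1.91 (SE 0.25, 95% confidence interval -2.51 to -1.30, limma adjusted p = 0.00132). Its call held under each of the 19 alternatives, with log2 fold changes between -2.15 and -1.65. ST3GAL6 overlaps DCBLD2 on the other strand, and its mean signal of 67.3 is small beside the 8824 of DCBLD2.

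DCBLD1 lies on chromosome 6 (chr6:117453817-117569858, plus strand) and had 304, 250 and 291 in Control against 364, 315 and 248 with DCC-2036. These ranges overlap, with treated values on both sides of the Control mean. The log2 fold change was 0.12 (SE 0.17, 95% confidence interval -0.28 to 0.53, limma adjusted p = 0.549), and without DCC-2036 replicate 1 it was -0.005. DCBLD1 overlaps GOPC on the other strand, which has the higher mean signal of the pair, 723 against 295.

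The log2 ratio of DCBLD2 to DCBLD1 within a library was taken with the same constant added to each signal as in the tests. Apart from that constant, which is small beside these signals, the ratio does not depend on how libraries are scaled. It was 5.64, 5.73 and 5.48 in Control against 3.83, 3.56 and 3.37 with DCC-2036. The groups did not overlap, and their means differed by -2.03 (5.61 ± 0.13 in Control and 3.59 ± 0.23 in DCC-2036, SD, n = 3, two-sided exact permutation p = 0.1). With 3 libraries against 3, 0.1 is the smallest p this exact test can give.

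Per kilobase of transcript, with lengths of the matching GENCODE transcripts, the order of the levels changed. In Control, DCBLD2 stood first at 2120 to 2480 signal per kilobase, ahead of PLXNB2 at 897 to 941, SEMA6B at 388 to 411 and SEMA4B at 342 to 365. These ranges do not overlap. In DCC-2036, PLXNB2 stood first at 1160 to 1470 and DCBLD2 second at 421 to 844. PLXNA1 at 226 to 409, SEMA7A at 231 to 381, SEMA4B at 168 to 317 and SEMA6B at 183 to 284 followed with overlapping ranges.

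**Figure D3:**
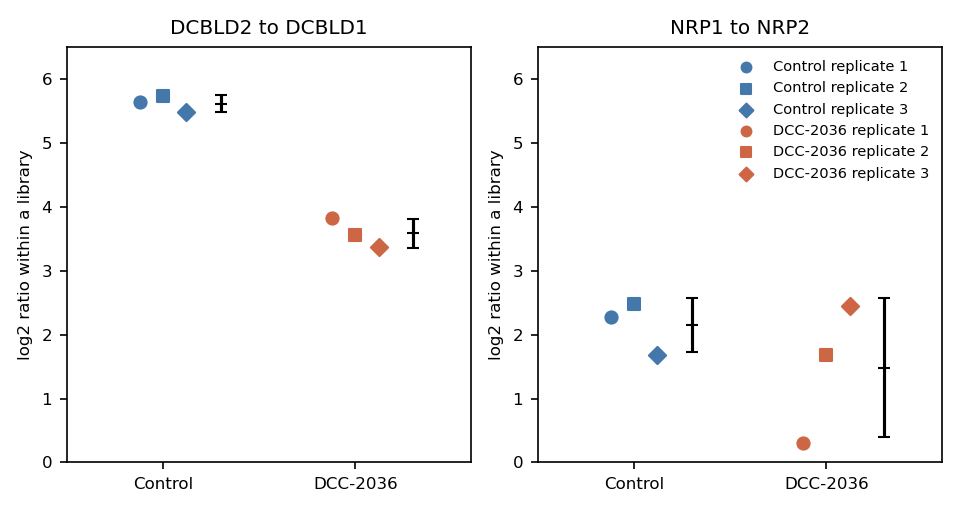
Log2 ratio within each library of DCBLD2 to DCBLD1 (left) and of NRP1 to NRP2 (right), with Control in blue and DCC-2036 in orange and bars for the mean and SD of 3 libraries. The DCBLD ratio lies at 5.48 to 5.73 in Control and 3.37 to 3.83 in DCC-2036, while the NRP ratio of the treated libraries spans 0.31 to 2.45 and overlaps that of Control.

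Neither neuropilin was called. NRP1, the co-receptor for SEMA3A and VEGFA, had 109, 86.9 and 73.4 in Control against 60.3, 78.9 and 85.3 with DCC-2036. These ranges overlap. NRP1 had a log2 fold change of -0.26 (SE 0.20, 95% confidence interval -0.73 to 0.21, limma adjusted p = 0.285). Its size moved with the setting, from -0.09 with the mean of all transcripts to -0.45 with equal totals, and it was -0.11 without Control replicate 1 or without DCC-2036 replicate 1.

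NRP2, the preferred co-receptor of SEMA3F, had 21.7, 14.7 and 22.2 in Control against 48.5, 23.9 and 14.8 with DCC-2036. Replicate 1 of DCC-2036 was far higher than any Control library and replicate 3 lay at the bottom of the Control range. The log2 fold change was 0.41 (SE 0.41, 95% confidence interval -0.58 to 1.41, limma adjusted p = 0.409) and turned to -0.03 without that replicate 1. The log2 ratio of NRP1 to NRP2, taken on signal + 1, was 2.28, 2.48 and 1.68 in Control against 0.31, 1.68 and 2.45 with DCC-2036. The means differed by -0.67 (two-sided exact permutation p = 0.4), and by -0.08 without DCC-2036 replicate 1.

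Transcripts of 1 gene share reads, yet their ratios can be followed within a library. The neuropilin transcripts described next were chosen after their values were seen. For 13 tested members with more than 1 transcript, each of the 35 other transcripts was expressed as a percent of the transcript used above. Groups did not overlap for 11 of the 35 (31.4%), against 29.6% of 19954 such transcripts over all tested genes. In 5 of the 35 (14.3%) the group means also differed by more than 10 percentage points, against 7.04% over all tested genes. All 5 belong to NRP1 and NRP2 and share reads within each gene. They are not separate events, so 14.3% is not read as an excess.

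NRP1 has short transcripts that encode secreted forms without the membrane span. Relative to the 5877-base transcript, the 1988-base transcript stood at 50.1%, 47.5% and 37.2% in Control against 57.1%, 73.9% and 80.4% with DCC-2036. The 2213-base transcript stood at 55.3%, 54.6% and 42.2% in Control against 58.8%, 76.7% and 88.5% with DCC-2036. Both were higher in every treated library than in any Control library, by a small margin in replicate 1. The means of the 1988-base transcript differed by 25.5 percentage points. No p-value is read from this, since these transcripts were picked for groups that did not overlap, which alone sets the exact permutation p to 0.1.

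For NRP2, the 3367-base transcript stood at 51.8%, 76.8% and 79.5% of the 6662-base transcript in Control against 97.9%, 91.1% and 107% with DCC-2036. The values listed for a 5909-base transcript were identical. The 2386-base transcript stood at 47.7%, 46.6% and 58.6% in Control against 65.9%, 72.6% and 67.2% with DCC-2036. These 3 NRP2 transcripts thus took a larger share in every treated library than in any Control library, although their signals were low, between 6.86 and 47.5. The shares of the 2926-base and 2730-base NRP2 transcripts overlapped between the groups.

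**Figure D4:**
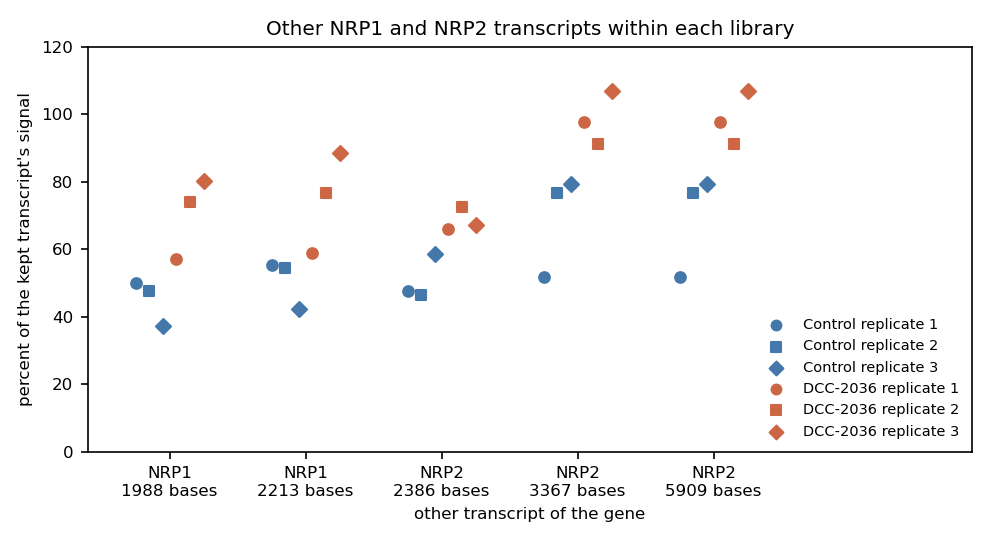
Signal of 5 other NRP1 and NRP2 transcripts, as percent of the signal of the transcript used for the gene, in each library, with Control in blue and DCC-2036 in orange. All treated points lie above the Control points of the same transcript, closest for the 2213-base NRP1 transcript at 58.8% against 55.3%; the 3367-base and 5909-base NRP2 transcripts have the same values.

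Of the 15 tested members that were not called, the log2 fold changes lay between -0.59 and 0.65, and limma adjusted p-values between 0.0159 and 0.815. These were SEMA3A, SEMA3C, SEMA3D, SEMA3F, SEMA3G, SEMA4B, SEMA4G, SEMA6A, PLXNA1, PLXNB3, PLXNC1, PLXND1, NRP1, NRP2 and DCBLD1. SEMA4B, SEMA4G and PLXNC1 had groups that did not overlap. SEMA4G came closest to the limit (log2 fold change -0.45, SE 0.12, limma adjusted p = 0.0159) and passed it with equal totals, without DCC-2036 replicate 3 and with array weights (limma adjusted p = 0.00458, 0.00823 and 3.57e-05, and between 3.57e-05 and 0.0669 over all alternatives). SEMA4G overlaps MRPL43 on the other strand, whose mean signal was 1246 against 199 and whose log2 fold change was -0.43. Whether reads of MRPL43 enter the SEMA4G signal was not tested. SEMA6A was called only without DCC-2036 replicate 3 (log2 fold change 0.98, limma adjusted p = 0.00239) and with array weights (0.90, limma adjusted p = 7.3e-05, with 0.265 the highest over all alternatives), where its value over all libraries was 0.65. Array weights also called PLXNA1 and PLXNB3.

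The 6 members under the filter were SEMA3E, SEMA4A, SEMA5A, SEMA5B, SEMA6D and PLXNA4. Their highest value in any library was 12.4, and SEMA6D had 0 in each treated library. Low values differ in kind between the groups: Control columns hold no value between 0 and 0.5, whereas 2061, 2354 and 2277 transcripts of the 3 DCC-2036 columns do. The same 5697 transcripts are listed at 0 in each DCC-2036 column. Whether the columns of the 2 groups were processed alike is not given in the sources used here, and a difference in processing could not be told apart from one between Control and DCC-2036 in any gene.

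The treated libraries differed among themselves more than the Control libraries did. The median SD of log2 values over the 27 tested members was 0.10 in Control and 0.45 in DCC-2036, and over all tested genes it was 0.10 and 0.23. For 7 of the 12 called members, DCC-2036 replicate 3 lay farthest from the Control mean, and the share over all called genes was not counted. That library also had the lowest correlation with the Control mean (0.896, against 0.942 for DCC-2036 replicate 1 and 0.924 for replicate 2). The pattern is thus not shown to be particular to the members. Of the 15 members not called, 10 had DCC-2036 replicates 1 and 3 on opposite sides of the Control mean (66.7%), against 28.3% of all 7396 tested genes that were not called. This comparison was chosen after the values were seen. Without DCC-2036 replicate 3, 5 members were called higher and 9 lower, where 45.7% of all tested genes were called. Without DCC-2036 replicate 2, 2 members were called higher and 4 lower, where 21.0% of all tested genes were called. The member counts thus moved in the same direction as those of all genes.

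A list of 65 partners and effectors of these families was followed by class. Of 57 tested genes, 14 were higher and 7 lower (36.8% called, against 41.9% of all tested genes), with a median log2 fold change of 0.18. This share is no higher than that of all genes, so the count says nothing particular about the list. Its classes are small, and the counts per class given below are not read as results about them. Called genes are named where the log2 fold change was at least 1 in either direction, as are ABL1, SRC, FYN, CRK and CRKL whatever their values, and any others were chosen after their values were seen.

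Among 8 tested co-receptors and binding partners, 2 were higher and 1 lower. The receptor kinase MST1R, a partner of class B plexins, had 1117, 1019 and 1165 in Control against 230, 259 and 387 with DCC-2036. This gene fell by 1.94 on the log2 scale (SE 0.20, limma adjusted p = 0.000646). PTK7, a kinase-like co-receptor of class A plexins, had 3393, 3309 and 3508 in Control against 6953, 7343 and 6709 with DCC-2036, a log2 fold change of 1.04 (SE 0.10, limma adjusted p = 0.000444). Both genes were fully separated between the groups. CD72, a binding partner of SEMA4D on B cells, was called higher at low values, 0.90, 1.71 and 4.69 against 13.5, 12.0 and 24.1 (limma adjusted p = 0.00396). CD72 passed the filter through the treated libraries alone, and a gene this low in Control had to differ to pass, so its call carries little weight. It was tested in 15 of the 19 alternatives (limma adjusted p between 0.000135 and 0.0164), and its call was lost without Control replicate 1 or 2 (limma adjusted p = 0.0131 and 0.0164).

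VEGFA, a ligand of both neuropilins, had 715, 665 and 699 in Control against 1251, 1445 and 1495 with DCC-2036. It rose by a log2 fold change of 1.01 (SE 0.11, limma adjusted p = 0.00073), while VEGFB was called lower. PGF, the last of the 3 tested VEGF family genes, was lower in each treated library than in any Control library and was not called.

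Collapsin response mediators carry semaphorin signals to the cytoskeleton. Of 4 tested, DPYSL4 and DPYSL5 were lower and DPYSL3 higher. DPYSL4 had 168, 174 and 194 in Control against 31.1, 39.8 and 18.2 with DCC-2036, with a log2 fold change of -2.62 (SE 0.27, limma adjusted p = 0.000641). DPYSL5 had 508, 489 and 504 in Control against 189, 110 and 50.7 with DCC-2036, with a log2 fold change of -2.28 (SE 0.44, limma adjusted p = 0.00499). Both fell below Control in every treated library. The DPYSL5 call was lost without Control replicate 1, 2 or 3 (limma adjusted p = 0.0199, 0.0178 and 0.0198) or DCC-2036 replicate 2 (0.0166). Across the alternatives, limma adjusted p-values for it spanned 2e-06 to 0.0199.

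Of 5 MICAL family genes, 1 was called, MICAL1, an enzyme that oxidises actin downstream of plexins. It had 509, 489 and 485 in Control against 232, 221 and 265 with DCC-2036 and fell by 1.05 on the log2 scale (SE 0.11, limma adjusted p = 0.000626). Among 15 GTPases and exchange factors at plexins, 4 were higher (RAC1, RHOA, RAP1A and ARHGEF12) and 0 lower. That is 26.7% called, against 41.9% of all tested genes (19.2% higher and 22.7% lower). The log2 fold change was below 0 in 3 of the 15. RAC1, which binds class A and B plexins, had 4253, 4605 and 4542 in Control against 7747, 9465 and 11577 with DCC-2036, a log2 fold change of 1.08 (SE 0.16, limma adjusted p = 0.00197). Without Control replicate 1 or 3 its adjusted p was 0.0107 and 0.0102. Its limma adjusted p over the alternatives ran from 1.76e-06 to 0.0107.

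Of 10 kinases and cytoskeletal effectors, GSK3B, PAK1 and ROCK1 were higher and CDK5 lower. GSK3B, which phosphorylates collapsin response mediators, had 1658, 1351 and 1521 in Control against 3002, 3077 and 3072 with DCC-2036 (log2 fold change 1.02, SE 0.11, limma adjusted p = 0.000722). Of 5 semaphorin proteases and adaptors, ADAM17, a sheddase of membrane proteins, was the only one called, with 882, 830 and 817 in Control against 1587, 1754 and 2045 with DCC-2036 (log2 fold change 1.08, SE 0.12, limma adjusted p = 0.000848). The treated values of both genes were all above Control.

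The kinases and adaptors that act on the DCBLD tails included the called genes CRKL, FYN and CRK. The adaptor CRK had 2036, 2063 and 1867 in Control against 1121, 834 and 462 with DCC-2036. Its close relative CRKL had 2940, 2831 and 2710 in Control against 5443, 6979 and 8140 with DCC-2036. The adaptors thus moved apart, CRK below and CRKL above Control in all 3 treated libraries. The log2 fold change was -1.39 for CRK (SE 0.31, limma adjusted p = 0.00868) and 1.26 for CRKL (SE 0.16, limma adjusted p = 0.00122). The CRK call was lost without Control replicate 1, 2 or 3 (limma adjusted p = 0.0312, 0.0298 and 0.0271) or DCC-2036 replicate 2 (0.0229). Over all alternatives the limma adjusted p lay between 6.57e-06 and 0.0312.

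Of the kinases, FYN had 187, 185 and 154 in Control against 275, 336 and 433 with DCC-2036, without overlap, and a log2 fold change of 0.96 (SE 0.19, limma adjusted p = 0.00518). Its call was lost without Control replicate 1, 2 or 3 (limma adjusted p = 0.0169, 0.0174 and 0.0227) or DCC-2036 replicate 2 (0.0191). Its limma adjusted p over the alternatives ran from 1.38e-05 to 0.0227. ABL1 had 2244, 2163 and 2344 in Control against 3168, 3104 and 2465 with DCC-2036. The ABL1 values did not overlap, but its log2 fold change of 0.36 (SE 0.13, limma adjusted p = 0.0467) was not called, and without DCC-2036 replicate 3 it was (0.48, limma adjusted p = 0.0054, in a range of 6.03e-05 to 0.373 over all alternatives). SRC had 992, 972 and 980 in Control against 1286, 1255 and 887 with DCC-2036, with overlap and a log2 fold change of 0.20 (SE 0.16, limma adjusted p = 0.312). With equal totals the values were 0.002 for SRC and 0.16 for ABL1. Without DCC-2036 replicate 3 SRC was at 0.37 and not called, and array weights, which called 78.7% of all tested genes, also called SRC (0.36, limma adjusted p = 0.000412, with 0.995 the highest over all alternatives) and ABL1.

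**Figure D5:**
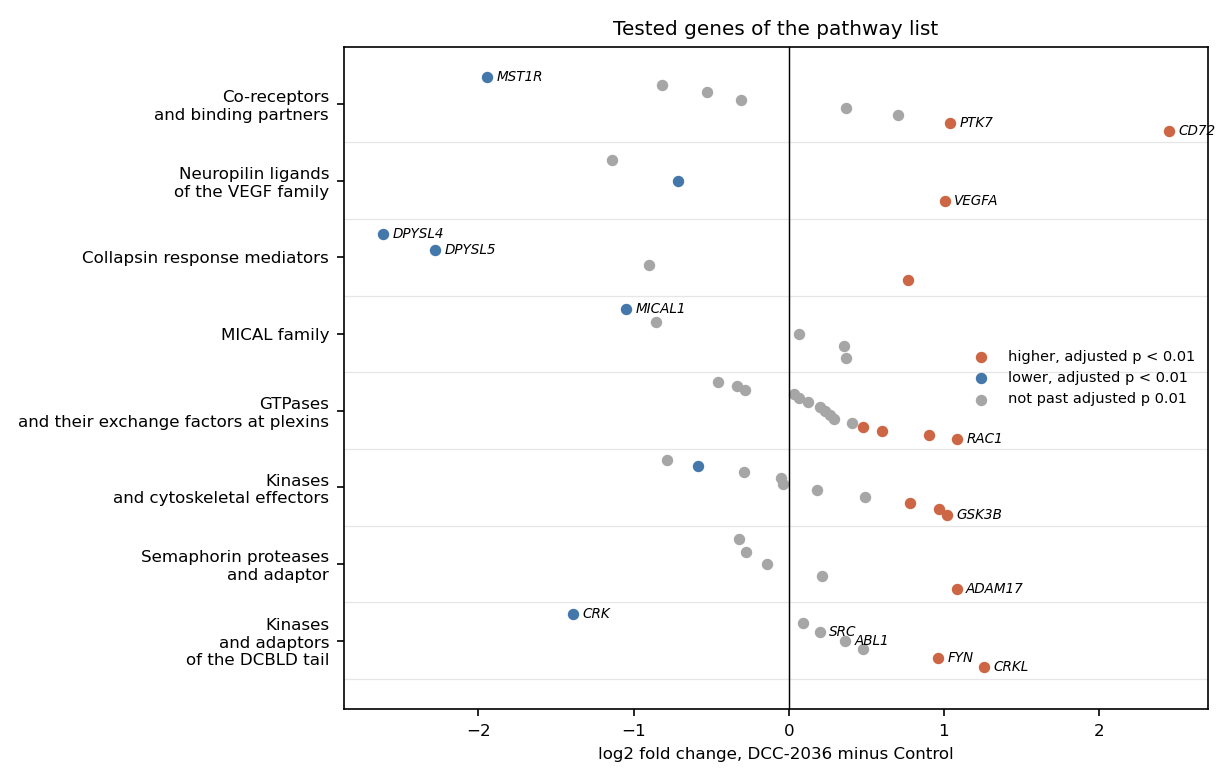
Log2 fold change (DCC-2036 minus Control) of the 57 tested genes of the pathway list, 1 point per gene, in rows by class. Orange marks genes called higher, blue genes called lower and grey genes not called, and CRK at -1.39 and CRKL at 1.26 lie on opposite sides of 0 in the lowest row.

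Without the filter on low values, more genes enter the adjustment and the calls of PLXNB2, SEMA4C, PLXNA3, SEMA3B, SEMA6B, DPYSL5, CRK and FYN ended (limma adjusted p between 0.0119 and 0.0201). DCBLD2 and SEMA4F kept their calls in all 19 alternatives, and PLXNA2 in the 18 in which it was tested.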

How the data were processed

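The authors deposited 1 table with a signal per RefSeq transcript and library, for LoVo cells of 2 groups of 3 libraries. The values had been adjusted by them and were not whole numbers, and the library totals differed. Libraries were grouped by the sample titles. Aligner, counter and genome build are not given in the sources used here. Log2 fold changes, p-values and q-values of the authors' own comparison, also deposited, were not used, and 0 other columns of values per sample were present.

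Members and gene lists were chosen with earlier results of these data known. Values were tested as log2(signal + 1) with limma 3.58.1 in R 4.3.3, two-sided, without covariates, on symbols that reached 10 in 3 of the 6 libraries, with Benjamini-Hochberg adjustment over all tested symbols and calls under 0.01. The code was tested on simulated data. Ratios within libraries were compared by exact permutation in Python 3.11.15 with numpy 2.4.6 and pandas 2.3.3, and plots were drawn with matplotlib 3.10.9. Values per library are given for DCBLD1, DCBLD2, NRP1, NRP2 and each called member, and from the pathway list for called genes whose log2 fold change was 1 or more in size, up to 4 per class, and for ABL1, SRC, FYN, CRK and CRKL. Gene positions, overlaps and transcript lengths came from GENCODE 29 (GRCh38) and promoter windows from RefSeq. Lengths belong to the GENCODE transcript paired with each RefSeq transcript and may differ from it. Alternatives were 3 scalings, other filters, a replicate block, a pseudocount of 0.1, leaving out each library, other limits, a trend, array weights and other uses of the transcripts. A test on counts had been the plan for count data, and tests on read counts were not run. Depth being unknown, no counting error is given.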

Additional observations from a re-analysis of the deposited data

How the results depend on the processing

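None of the 12 called members changed sign in any of the 19 alternatives in which it was tested, but most alternatives could not change one. Their groups did not overlap, so leaving out 1 library could not turn a sign. Other limits, other filters, a trend and a replicate block left the log2 fold changes as they were. DCBLD2 and SEMA4F kept their calls in all 19, and PLXNA2 in 18, since the filter of 10 in all 6 libraries removed it. Members called higher and lower, 4 and 8 as reported, were 2 and 5 without the filter on low values, 2 and 4 when calls also needed a log2 fold change of 1 or more in size, and between 1 and 5 and between 3 and 9 when 1 library was left out. With a replicate block they were 2 and 5, and over all genes 1202 higher and 1909 lower were called in place of 2442 and 2887. Same-numbered libraries did not deviate together (correlations of 0.081, -0.035 and -0.003 across genes). With 3 libraries per group and little spread in Control, these values cannot decide whether such libraries had a culture or a day in common. The labels do not say so either. Over all genes, leaving out 1 library called between 928 and 2675 higher and between 1514 and 3507 lower, and the limit of 1 left 944 and 1930. The fit without the filter on low values called 1749 higher and 2154 lower, 23.4% of its 16667 tested genes, in place of 41.9%. Array weights, whose fit stopped before full convergence, gave 4610 and 5403.

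The median of the semaphorins, -0.28, was -0.47 with equal totals and lay between -0.31 and -0.17 when 1 library was left out. That of the plexins and neuropilins, -0.21, was -0.41 with equal totals, -0.13 with the mean of all transcripts, and lay between -0.31 and -0.11 when 1 library was left out.

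Of the 15 members not called, 6 changed sign. With equal totals, log2 fold changes were -0.077 for DCBLD1, -0.055 for PLXNA1, -0.16 for PLXND1 and -0.085 for SEMA3D. Without DCC-2036 replicate 1 they were -0.005 for DCBLD1, -0.027 for NRP2, -0.029 for PLXNA1, -0.049 for PLXND1, -0.30 for SEMA3D and -0.361 for SEMA3F. Without DCC-2036 replicate 3 they were 0.27 for DCBLD1, 0.798 for NRP2, 0.397 for PLXNA1, 0.146 for PLXND1, 0.468 for SEMA3D and 0.207 for SEMA3F, which was 0.117 with array weights. The cause was not tested. Leaving out single libraries was chosen after seeing the data for the ratios and the neuropilin transcripts. The 5 transcripts and the ratio of DCBLD2 to DCBLD1 had groups without overlap, so leaving out 1 library could not turn their direction. For that ratio the group difference lay between -2.15 and -1.92. The ratio of NRP1 to NRP2, whose groups overlap, kept its direction, at -1.16 to -0.08. Equal totals for the class sums, chosen after seeing the data, moved the log2 ratio of the group means of the semaphorin sum from -0.086 to -0.28.

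Tests on read counts were not run, since the values are not counts. With 3 libraries per group, small changes are easily missed, and depth per value is unknown.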
